A study of Mus musculus with 10 samples.

Results

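The respiratory chain and ATP synthase subunits described here are 59 nuclear genes, listed by name, for complex I (30 genes), complex III with cytochrome c (8), complex IV (11) and complex V (10). Each gene is represented by the brightest, over all arrays, of the microarray probe sets annotated to its symbol alone. Of the 59 genes, 57 had such a probe set, and 56 of these lay above the filter on dim probe sets, out of 10704 genes that lay above it in the whole series. In these 56 genes no difference between myostatin knockout and control muscle passed the test, the fitted differences were centred on 0, and the estimates were tight for all but 1 of them.

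RNA came from the gastrocnemius, a calf muscle of mostly fast fibres, of 10 male C57BL/6 mice aged 7.5 months, and each animal gave 1 array. The 5 Floxed_Mstn mice carried floxed myostatin genes (Mstn), and the 5 WT_Mstn mice had normal myostatin genes. Mice of both groups carried the CAGG-CreER transgene and were given 8 tamoxifen injections from the age of 4 months, so the controls share the Cre recombinase and the drug. The CAGG promoter is active in most tissues, so the deletion was not restricted to muscle fibres and began after muscle had developed. Expression of Mstn itself was not analysed here, so the genotypes rest on the labels. The comparison asks how the loss of myostatin in grown animals alters the transcripts of mature muscle.

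Complexes I to IV pass electrons from NADH and succinate to oxygen. Complexes I, III and IV pump protons across the inner mitochondrial membrane, and complex V uses the return of those protons to make ATP. Most of the subunits are encoded in the nucleus, imported and assembled with a core encoded in mitochondrial DNA. Oxidative fibres hold more of these complexes than fast glycolytic fibres. Myostatin is a secreted protein of the TGF-beta family that limits muscle growth.

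The tissue label matched its markers: all 9 skeletal muscle fibre markers were above the filter, with Acta1 (skeletal actin) at 15.23 and Ckm (muscle creatine kinase) at 14.59 on the log2 scale. The brown fat markers Ucp1 and Cidea, the heart genes Myh6 and Nppa, and the globin gene Hba-a1 were below the filter of 4. The 3 fibroblast markers were lower in Floxed_Mstn (Col1a1 by -0.71, adjusted p = 0.104; Pdgfra by -0.30; Dcn by -0.27), as were both macrophage markers (Csf1r by -0.37; Adgre1 by -0.58), and no marker passed the test. Of the 4 white adipocyte markers, 2 had a probe set of their own, and both were above the filter. The brighter was at a level of 14.06, and the differences of the 2 were -0.18 and -0.09. The 2 endothelial markers differed by -0.21 and 0.0049. Another pair of heart genes was above the filter, Actc1 (cardiac actin, difference 0.83) and Tnnt2 (cardiac troponin T, -1.02), neither past the test (adjusted p = 0.568 and 0.607). In whole muscle, fewer cells of a type and less RNA per cell cannot be told apart. The highest non-control probe set of each array lay between 15.65 and 15.73, and the controls added at hybridisation (9 probe sets) averaged 13.23 ± 0.12 in WT_Mstn and 13.28 ± 0.20 in Floxed_Mstn (SD, n = 5 each, two-sided exact permutation p = 0.698).

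Promoter sequences were available from RefSeq (GRCm38.p6) for 48 of the 59 genes, as 53 windows of 300 bases around annotated transcription starts. They were searched on both strands for the core letters of motifs read by factors known to drive these genes. The NRF-1 motif GCGCANGCG was in 12 of the 53 windows (22.6%), against 6.25% of all 32851 promoter windows of the same length. The YY1 motif AAGATGGC was in 9 (17.0%) against 2.75%, the ERR motif AAGGTCA in 4 (7.55%) against 4.72%, and the ETS motif CCGGAAGT of NRF-2 in 2 (3.77%) against 3.89%. None of these motifs contains another, and a match is a description of the window and not evidence of binding. Motif matches are in capitals in the promoters of Ndufs4, the subunit gene of lowest p; of Atp5g3, which holds 2 of the motifs; and of Cox7a1 and Cox7a2, the muscle and the general isoform of a complex IV subunit, which hold none of them.
Ndufs4 (chr13:114388045-114388344, minus strand, YY1): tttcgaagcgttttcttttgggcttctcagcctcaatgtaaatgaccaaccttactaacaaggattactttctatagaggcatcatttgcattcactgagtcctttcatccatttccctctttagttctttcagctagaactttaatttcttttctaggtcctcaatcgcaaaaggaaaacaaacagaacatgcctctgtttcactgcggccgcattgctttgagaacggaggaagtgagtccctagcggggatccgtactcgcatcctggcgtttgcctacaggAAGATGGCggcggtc
Atp5g3 (chr2:73911277-73911576, minus strand, ERR then NRF-1): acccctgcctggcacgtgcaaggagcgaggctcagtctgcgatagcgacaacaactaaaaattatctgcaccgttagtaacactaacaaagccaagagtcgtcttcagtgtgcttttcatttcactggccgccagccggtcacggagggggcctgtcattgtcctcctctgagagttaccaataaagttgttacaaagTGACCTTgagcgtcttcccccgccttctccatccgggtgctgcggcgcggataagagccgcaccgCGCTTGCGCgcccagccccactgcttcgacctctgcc
Cox7a1 (chr7:30183921-30184220, plus strand): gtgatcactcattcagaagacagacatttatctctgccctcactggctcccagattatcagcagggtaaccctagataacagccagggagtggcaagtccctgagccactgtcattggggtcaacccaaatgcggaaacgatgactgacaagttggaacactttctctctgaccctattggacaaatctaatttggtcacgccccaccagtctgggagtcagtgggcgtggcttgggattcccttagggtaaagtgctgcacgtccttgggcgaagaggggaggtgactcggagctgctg
Cox7a2 (chr9:79759804-79760103, minus strand): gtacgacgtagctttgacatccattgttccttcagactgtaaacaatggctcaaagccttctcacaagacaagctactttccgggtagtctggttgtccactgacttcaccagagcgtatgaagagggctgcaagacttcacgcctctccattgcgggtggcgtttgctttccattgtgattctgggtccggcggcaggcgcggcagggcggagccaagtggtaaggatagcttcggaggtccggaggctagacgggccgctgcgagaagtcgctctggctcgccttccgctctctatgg

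Across all 21154 probe sets tested, limma called 21 at an adjusted p under 0.05, which is 0.0993%. None of the 56 subunit genes was called. At an unadjusted p under 0.05, where 7.69% of all probe sets lay, there were also 0 subunit genes, and the lowest p among them was 0.149. Full separation of the groups means every Floxed_Mstn array above or below every WT_Mstn array. It was seen in 2.06% of all probe sets and in 0 of the subunit genes by their brightest probe sets. A second, dimmer probe set of Ndufs4 showed it and is described below. Fitted differences (Floxed_Mstn minus WT_Mstn, log2) were above 0 in 27 genes and below 0 in 29, with a median of -0.0031 beside -0.0029 over all probe sets.

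The width of the intervals says how large a difference in probe set intensity these arrays could have missed. The 95% interval of the difference lay within ±0.2 in 49 of the 56 genes and within ±0.3 in 55, compared with 7.17% and 23.9% of all probe sets tested. Leaving out Cox7c, whose probe set was dim, the intervals of the other 55 genes ran from -0.25 to 0.26, or from 0.838-fold to 1.20-fold. Within groups the SD of a subunit gene had a median of 0.056, against 0.242 over all probe sets, and 52 of the 56 genes had an SD under 0.1. Of the 56 genes, 49 had a mean level of 13 or more, and the 669 other probe sets that bright had a median SD of 0.071. Differences among those 669 reached 0.83, in Actc1. The highest non-control probe set of each array lay between 15.65 and 15.73. Whether intensity followed RNA amount in full this near the top was not tested, so the intervals hold for intensity.

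**Figure D1:**
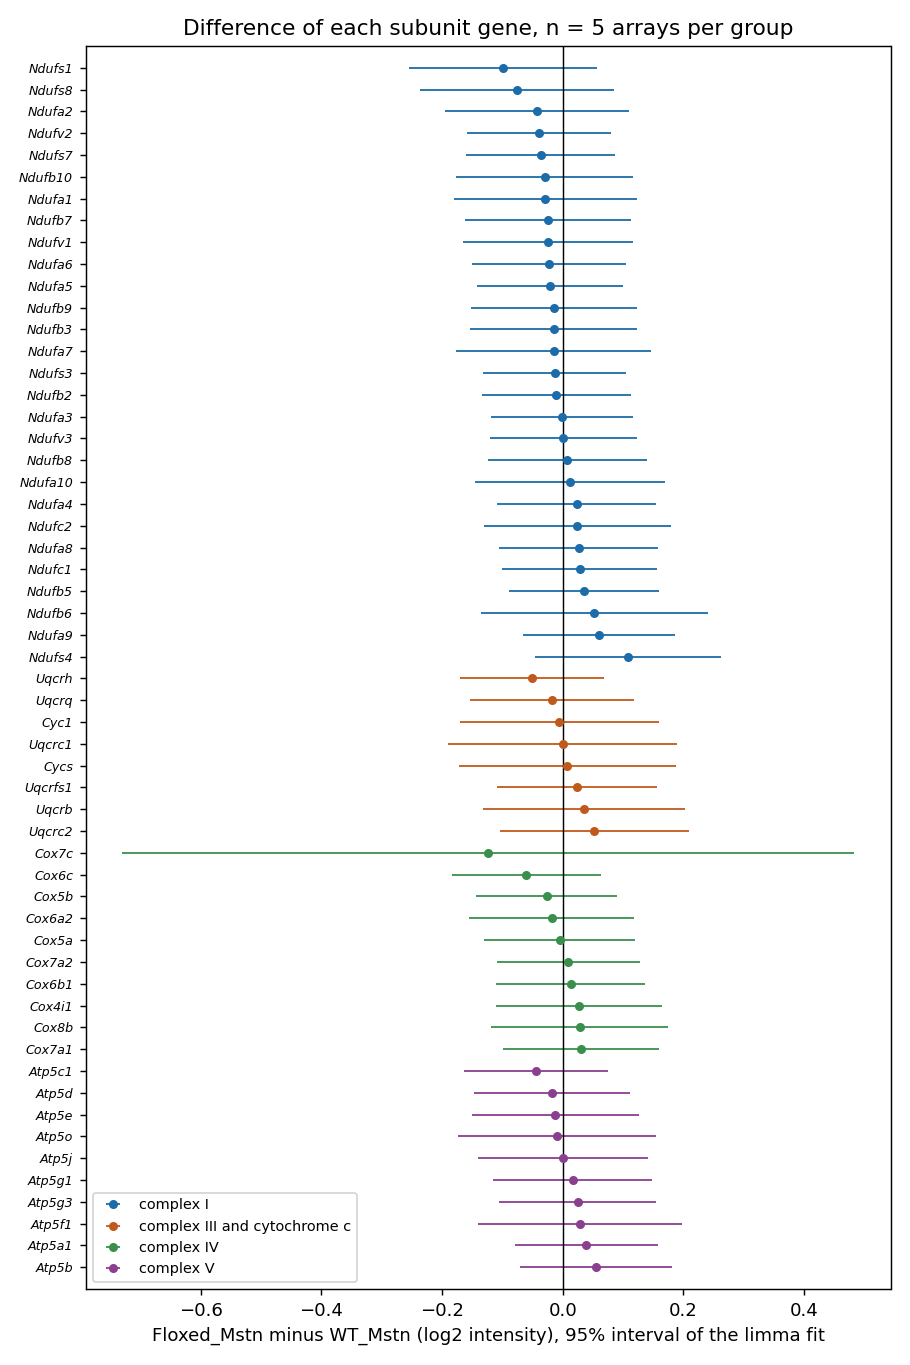
Fitted difference of each of the 56 subunit genes, Floxed_Mstn minus WT_Mstn in log2 intensity on the horizontal axis, with the 95% interval of the limma fit (n = 5 arrays per group), coloured by complex. All 56 intervals cross 0, and that of Cox7c, from -0.73 to 0.48, is the widest.

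Complex I oxidises NADH. Of its 28 measured genes, 11 were higher and 17 lower in Floxed_Mstn, none past the test, with a median difference of -0.014. The mean level of the 28 genes on an array was 13.79 ± 0.02 in WT_Mstn and 13.78 ± 0.03 in Floxed_Mstn (SD over arrays, n = 5), so the groups' means differed by less than the spread between arrays. The members cover both arms of the enzyme, from the NADH-binding module to the membrane arm.

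Ndufs4 encodes an accessory subunit of the matrix arm that helps join the NADH-binding module to the rest of complex I. It read 12.93, 12.75, 12.74, 12.95 and 12.85 in WT_Mstn and 13.01, 13.01, 12.95, 12.92 and 12.86 in Floxed_Mstn. Before rounding, the 3 highest arrays were knockouts and the 3 lowest were controls, and the groups overlapped. The difference was 0.11 (95% interval -0.05 to 0.26, adjusted p = 0.803).

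Ndufs1 encodes the largest iron-sulfur subunit, in the NADH-binding module, and had the lowest difference of complex I. Its values were 12.89, 12.94, 13.07, 12.90 and 12.87 in WT_Mstn and 12.81, 12.98, 12.76, 12.86 and 12.78 in Floxed_Mstn. All but Floxed_Mstn 2 of the knockout arrays were below the WT_Mstn range, and the difference was -0.10 (interval -0.25 to 0.06, adjusted p = 0.835). Ndufs8, an iron-sulfur subunit of the arm that hands electrons to ubiquinone, read 13.37, 13.30, 13.21, 13.23 and 13.18 against 13.23, 13.20, 13.14, 13.04 and 13.30. Its difference of -0.08 (adjusted p = 0.910) came with overlapping groups.

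Ndufa9, an accessory subunit at the joint of the 2 arms, read 13.34, 13.36, 13.44, 13.40 and 13.32 in WT_Mstn and 13.47, 13.41, 13.39, 13.47 and 13.42 in Floxed_Mstn. Both arrays at 13.47 were knockouts, and the difference was 0.06 (adjusted p = 0.908). Ndufb6, a membrane-arm subunit, had the largest spread within groups of complex I. WT_Mstn arrays ran over 13.24, 13.53, 13.59, 13.43 and 13.31, a range that held all 5 Floxed_Mstn values (13.51, 13.40, 13.37, 13.52 and 13.55), and the difference was 0.05 (interval -0.14 to 0.24). The other 23 genes of complex I had differences between -0.04 and 0.04. One of them, Ndufa4, is listed here by its name, although its protein is now counted with complex IV; it was named after its values were seen, and its difference was 0.02.

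Complex III passes electrons from ubiquinol to cytochrome c, a small carrier encoded by Cycs. Among its 8 genes, 5 were higher and 3 lower in Floxed_Mstn, none past the test, with a median difference of 0.0040. Their mean level per array was 13.71 ± 0.05 in WT_Mstn and 13.72 ± 0.02 in Floxed_Mstn.

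Uqcrh, the hinge subunit that helps cytochrome c dock, read 14.76, 14.68, 14.67, 14.71 and 14.68 in WT_Mstn and 14.67, 14.67, 14.64, 14.62 and 14.64 in Floxed_Mstn. The highest knockout values lay at the lowest control values, and the difference was -0.05 (interval -0.17 to 0.07, adjusted p = 0.930). Uqcrc2, a core subunit, read 14.61, 14.80, 14.92, 14.76 and 14.73 in WT_Mstn and 14.83, 14.78, 14.77, 14.84 and 14.86 in Floxed_Mstn, a difference of 0.05 (adjusted p = 0.958). Uqcrb, a small subunit near the ubiquinone site, read 14.32, 14.55, 14.64, 14.51 and 14.39 against 14.58, 14.44, 14.54, 14.53 and 14.50. In both, WT_Mstn 1 gave the lowest value of the 10 arrays and WT_Mstn 3 the highest, and the knockout arrays lay between them. Dimmer probe sets of these genes differed in this. That of Uqcrb was highest in Floxed_Mstn 1 (13.87) and lowest in Floxed_Mstn 3 (13.76). That of Uqcrc2 was highest in WT_Mstn 3 (13.87) and lowest in Floxed_Mstn 3 (13.62).

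Uqcrfs1, the Rieske iron-sulfur protein, which moves between cytochromes to carry electrons, read 13.58, 13.70, 13.66, 13.65 and 13.55 in WT_Mstn and 13.63, 13.72, 13.64, 13.62 and 13.64 in Floxed_Mstn. Its difference was 0.02 (adjusted p = 0.985), with Floxed_Mstn 2 apart from the other knockouts. Uqcrc1, the other core subunit, had the largest spread of the complex, and its control extremes were the reverse of those of Uqcrc2. It read 12.14, 12.00, 11.78, 11.93 and 11.80 in WT_Mstn, highest in WT_Mstn 1 and lowest in WT_Mstn 3, and 11.84, 11.89, 11.91, 11.95 and 12.06 in Floxed_Mstn, with equal group means (difference 0.0002, interval -0.19 to 0.19).

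Complex IV reduces oxygen with electrons from cytochrome c. Of its 10 measured genes, 5 were higher and 5 lower in Floxed_Mstn, none past the test, with a median difference of 0.0021 and mean levels per array of 13.71 ± 0.03 in WT_Mstn and 13.69 ± 0.06 in Floxed_Mstn.

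Cox6c, a small membrane subunit, read 14.59, 14.53, 14.52, 14.58 and 14.49 in WT_Mstn and 14.53, 14.50, 14.49, 14.46 and 14.44 in Floxed_Mstn. Before rounding, Floxed_Mstn 3, 4 and 5 lay below every control, the groups overlapped, and the difference was -0.06 (interval -0.18 to 0.06, adjusted p = 0.904). Cox5b, a matrix-side subunit, varied least of all 56 genes, with a within-group SD of 0.023. It read 15.30, 15.25, 15.24, 15.26 and 15.24 against 15.25, 15.26, 15.21, 15.21 and 15.22, a difference of -0.03 (adjusted p = 0.979). Cox7c, another small membrane subunit, was measured by a dim probe set at a mean level of 6.61. Its readings of 6.98, 6.48, 6.41, 6.40 and 7.06 in WT_Mstn and 6.01, 7.07, 6.01, 7.23 and 6.41 in Floxed_Mstn scattered over both ends of the scale in the knockouts, and the interval of the difference of -0.12 ran from -0.73 to 0.48, too wide to say more of this gene.

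Several complex IV subunits exist as a form of heart and skeletal muscle and a form of most other tissues. The change of the log2 difference between the 2 forms within an array is free of any shift common to the array, and was compared by two-sided exact permutation over all 252 assignments of arrays (n = 5 per group, smallest possible p 0.00794) with adjustment over the 5 pairs formed. Absolute levels of different probe sets were not compared. None of the 5 pairs passed.

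Cox7a1, the muscle form, read 13.29, 13.33, 13.32, 13.30 and 13.26 in WT_Mstn and 13.38, 13.32, 13.24, 13.33 and 13.39 in Floxed_Mstn. Cox7a2, the general form, read 14.84, 14.84, 14.86, 14.85 and 14.82 against 14.88, 14.84, 14.87, 14.80 and 14.86. Neither form parted the groups, and their within-array difference was higher by 0.02 in Floxed_Mstn (95% interval -0.05 to 0.09, exact p = 0.524, adjusted p = 0.655), the narrowest interval of the 5 pairs, and ran from 0.0076, without Floxed_Mstn 5, to 0.05, without Floxed_Mstn 3. Their promoters, shown above, hold none of the motifs searched.

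Cox6a2 is the muscle form of the subunit whose general form is Cox6a1. Cox6a2 read 14.71, 14.62, 14.53, 14.67 and 14.65 in WT_Mstn and 14.60, 14.57, 14.70, 14.62 and 14.59 in Floxed_Mstn (difference -0.02), and Cox6a1 read 13.14, 13.06, 13.03, 12.90 and 13.16 against 12.99, 12.78, 12.59, 12.88 and 13.09 (difference -0.19, limma adjusted p = 0.737). The muscle form minus the general form was higher by 0.17 in Floxed_Mstn (interval -0.09 to 0.44, exact p = 0.159, adjusted p = 0.265), with overlapping groups. It was 0.08 without Floxed_Mstn 3, and also 0.08 without the 3 arrays of highest hybridisation controls.

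Cox8b, the muscle form, read 14.67, 14.58, 14.50, 14.68 and 14.71 in WT_Mstn and 14.60, 14.69, 14.61, 14.65 and 14.74 in Floxed_Mstn (difference 0.03). Its general counterpart Cox8a read 8.53, 8.29, 8.16, 8.18 and 8.36 against 8.14, 8.07, 8.02, 8.17 and 8.41 (difference -0.14, limma adjusted p = 0.839). The within-array difference was again higher by 0.17 in Floxed_Mstn (interval -0.01 to 0.34, exact p = 0.0873, adjusted p = 0.265). In both of these pairs the general form differed more between the groups than the muscle form.

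Cox4i1 is the general form of the largest nuclear-encoded subunit, and Cox4i2 is known as a form of lung. Cox4i1 read 13.87, 13.94, 14.06, 13.99 and 13.93 in WT_Mstn and 14.04, 13.94, 13.94, 14.04 and 13.98 in Floxed_Mstn (difference 0.03). Cox4i2 had a mean level of 4.33, close to the filter, with control values from 4.44 to 4.85 and knockout values from 3.28, in Floxed_Mstn 1, to 4.59. The pair's difference between groups of 0.48 (interval -0.15 to 1.11, exact p = 0.135, adjusted p = 0.265) was 0.26 without Floxed_Mstn 1, and it involves this dim probe set.

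**Figure D2:**
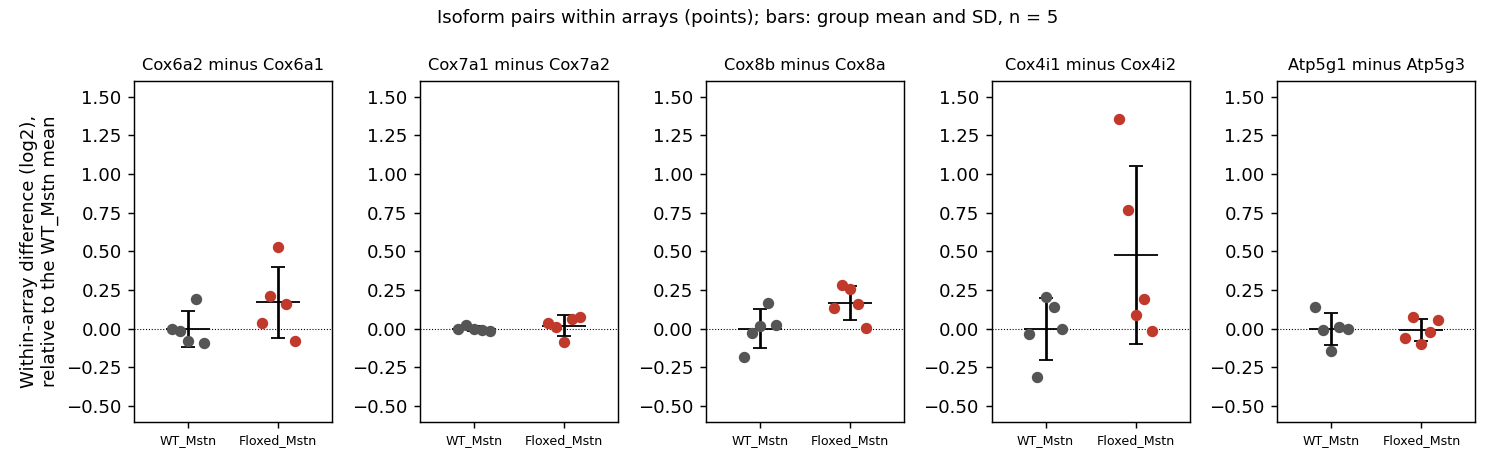
Within-array log2 difference of each of the 5 isoform pairs (vertical axis), set to 0 at the WT_Mstn mean, with 1 point per array and bars for the group mean and SD (n = 5). The groups' means differ by 0.02 for Cox7a1 minus Cox7a2 and by -0.01 for Atp5g1 minus Atp5g3; for Cox4i1 minus Cox4i2 they differ by 0.48, with a wide spread in Floxed_Mstn.

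Complex V, the ATP synthase, had 10 measured genes, 6 higher and 4 lower in Floxed_Mstn, none past the test, with a median difference of 0.0085. Mean levels per array were 14.34 ± 0.03 in WT_Mstn and 14.35 ± 0.02 in Floxed_Mstn. The genes cover the catalytic head, the stalks and the membrane ring.

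Atp5b encodes the catalytic beta subunit of the head. It read 14.13, 14.19, 14.12, 14.08 and 14.16 in WT_Mstn and 14.21, 14.23, 14.13, 14.22 and 14.17 in Floxed_Mstn. The 3 highest arrays were knockouts, and the difference was 0.06 (interval -0.07 to 0.18, adjusted p = 0.923). Atp5a1, the alpha subunit that alternates with beta in the head, read 14.80, 14.81, 14.83, 14.80 and 14.74 against 14.83, 14.82, 14.83, 14.86 and 14.85, a difference of 0.04 (adjusted p = 0.958). The gamma subunit Atp5c1, the shaft that turns inside the head, was on the other side of 0, at 14.74, 14.73, 14.70, 14.76 and 14.75 against 14.71, 14.72, 14.71, 14.63 and 14.69 (difference -0.04, adjusted p = 0.949). In each of these 3 genes the groups overlapped.

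The c subunit of the membrane ring is made from several genes that give the same mature protein. Atp5g3 read 14.70, 14.77, 14.83, 14.75 and 14.70 in WT_Mstn and 14.80, 14.70, 14.82, 14.77 and 14.77 in Floxed_Mstn (difference 0.02, adjusted p = 0.983), and Atp5g1 read 14.12, 14.05, 13.97, 14.05 and 13.98 against 14.03, 14.07, 14.01, 14.04 and 14.12 (difference 0.02). The pair's within-array difference was lower, by -0.01, in Floxed_Mstn (interval -0.14 to 0.12, exact p = 0.873, adjusted p = 0.873). As single arrays were left out it ran from -0.05 to 0.03, the latter without WT_Mstn 1. With the mean of all probe sets of each gene in place of the brightest it was -0.19 (exact permutation, adjusted p = 0.251). That mean gives equal weight to a dim Atp5g1 probe set, at a mean level of 6.43, which differed by -0.35. Atp5f1, the b subunit of the outer stalk, had the largest spread of complex V, with 13.77, 13.97, 14.06, 13.82 and 13.79 in WT_Mstn around 13.97, 13.87, 13.83, 13.96 and 13.93 in Floxed_Mstn. As in Uqcrb and Uqcrc2, its extremes over the 10 arrays were WT_Mstn 1, the lowest, and WT_Mstn 3. A second Atp5f1 probe set had these 2 arrays in the other order, at 13.86 in WT_Mstn 1 and 13.80 in WT_Mstn 3.

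**Figure D3:**
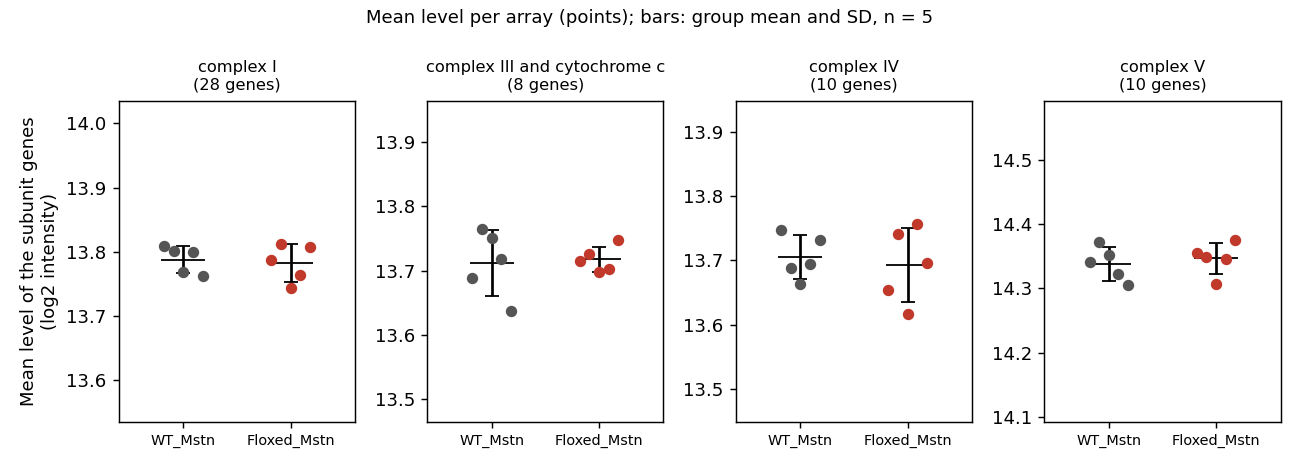
Mean log2 intensity of the measured genes of each complex on each array (points), with bars for the group mean and SD (n = 5); the 4 vertical axes span the same width around different centres. The groups overlap in every complex, and complex III with cytochrome c is more spread in WT_Mstn (SD 0.05) than in Floxed_Mstn (SD 0.02).

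By the brightest probe sets, the spread between animals differed by complex. In complex III with cytochrome c the SD was larger in WT_Mstn than in Floxed_Mstn for 8 of 8 genes, with medians of 0.108 and 0.040. Further probe sets of these genes did not all go this way. One of Cycs ran from 13.77 to 13.82 in WT_Mstn and from 13.76 to 13.90 in Floxed_Mstn. Another of Cycs, with 12.63 to 13.63 against 13.01 to 13.31, did. The count by the brightest probe sets was 8 of 10 for complex V (medians 0.056 and 0.043), 16 of 28 for complex I (0.052 and 0.056) and 6 of 10 for complex IV (0.044 and 0.048), or 38 of 56 in all. These counts are a description, since genes on the same arrays are not independent of each other. The WT_Mstn spread lay mainly in arrays 1 and 3: among the 5 controls, WT_Mstn 3 held the lowest value for 26 of the 56 genes and the highest for 16, and WT_Mstn 1 the highest for 19 and the lowest for 10. Among the knockouts, Floxed_Mstn 5 was highest for 23 genes and Floxed_Mstn 3 lowest for 22.

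The same arrays stood at the ends of the hybridisation controls. Those controls were lowest in Floxed_Mstn 5 (13.01) and WT_Mstn 1 (13.10) and highest in Floxed_Mstn 3 (13.51), Floxed_Mstn 1 (13.44) and WT_Mstn 3 (13.41). With their level as a covariate in the fit, 0 subunit genes passed the test and the lowest adjusted p among them was 0.565. The median half-width of the intervals was 0.127 with the covariate and 0.134 without it.

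**Figure D4:**
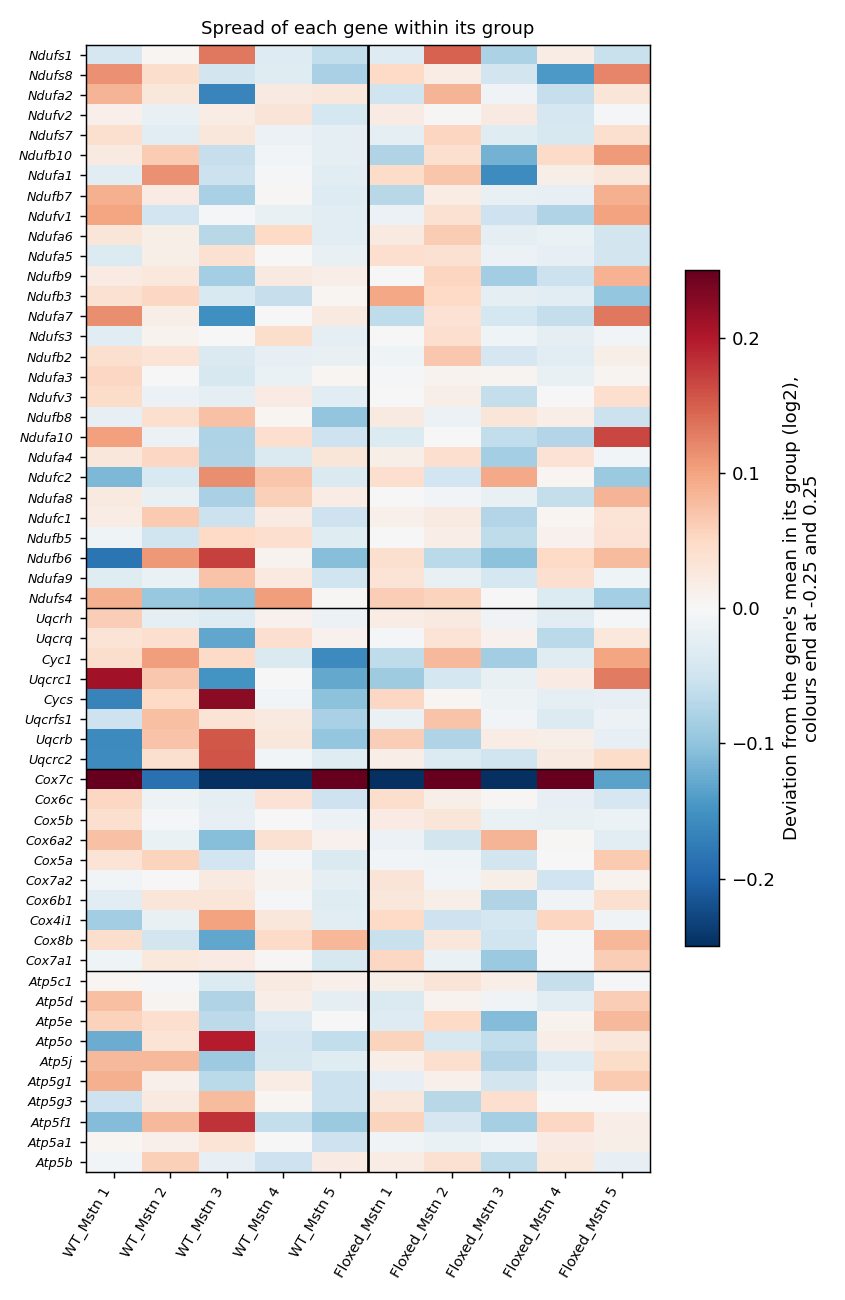
Deviation of each of the 56 subunit genes from its mean within its group (log2, colour scale, ending at -0.25 and 0.25), with genes as rows by complex and the 10 arrays as columns. WT_Mstn 1 and WT_Mstn 3 hold opposite colours in many rows, such as Uqcrc1 and Uqcrb, and Cox7c fills the scale, with a within-group SD of 0.468.

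Genes with several probe sets gave a check from other sequences of the same transcripts. The 57 genes with probe sets of their own had 118 in all, of which 107 were above the filter, 50 with a difference above 0 and 57 below. A single one had an unadjusted p under 0.05, a dim probe set of Uqcrq, a small complex III subunit, with a mean level of 4.40 and a difference of -0.36 (adjusted p = 0.580); the brightest Uqcrq probe set differed by -0.02. Of 34 genes with at least 2 probe sets above the filter, 16 had probe sets on both sides of 0. Among the 99 probe sets with a mean level above 8 the differences ran from -0.10 to 0.13.

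The 3 genes left unmeasured were Ndufb4, Ndufs6 and Cox7b. The only probe set annotated to Ndufb4 alone was at 2.16, below the filter, and 2 brighter ones are shared with Ndufb4b and Ndufb4c and differed by 0.03 and 0.08 (adjusted p = 0.981 and 0.894). A probe set shared by Ndufs6 and Ndufs6b differed by -0.01 (adjusted p = 0.991), and none listed Cox7b. Of the measured genes, 4 lie on chromosome 1, which carries Mstn. Their differences were 0.01 for Ndufa10, -0.02 for Ndufb3, -0.10 for Ndufs1 and -0.03 for Cox5b, with a median of -0.02 against -0.0004 for the 52 genes elsewhere.

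Further genes of the oxidative phosphorylation system, of its upkeep and of fibre types were described with 10 lists of 151 genes, of which 128 were above the filter. None was called, where the background is 0.0993% of probe sets. In these lists 4 genes had an unadjusted p under 0.05 (background 7.69%) and 4 had groups that did not overlap (background 2.06%), namely Sdhaf1, Mpc1, Chchd6 and Mb. The 19 further subunits of complexes I, III, IV and V had a median difference of -0.0084, with 5 higher and 14 lower, and with the arrays centred on their medians one of 0.0024, with 11 higher and 8 lower. ND5, a complex I subunit encoded in mitochondrial DNA and the single such gene with a probe set of its own, read 13.61, 13.95, 14.39, 14.04 and 13.95 in WT_Mstn and 14.24, 13.77, 14.29, 14.15 and 13.94 in Floxed_Mstn (difference 0.09, adjusted p = 0.974). Complex II, which feeds electrons from succinate and was outside the 59 genes, had 4 genes with a median of 0.0003; Sdhb, its iron-sulfur subunit, differed by 0.04 and Sdhc, a membrane anchor, by -0.02.

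Proteins that build the complexes are listed apart from their subunits. The 37 assembly factors had a median difference of 0.09, with 29 higher and 8 lower and 0 past the test. Sdhaf1, which helps load iron-sulfur clusters into complex II, read 9.16, 9.11, 8.73, 9.15 and 9.14 in WT_Mstn and 9.32, 9.32, 9.24, 9.46 and 9.38 in Floxed_Mstn, without overlap (difference 0.28, adjusted p = 0.493). Ndufaf1, an assembly factor of complex I, lay the other way at -0.14 (adjusted p = 0.717). The median SD of the assembly factors, 0.155, was larger than their median difference. WT_Mstn 3 moved this list most: without that control array the median was 0.04, with 22 higher and 15 lower, and it was 0.05 without Floxed_Mstn 2 and 0.06 without Floxed_Mstn 5.

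Genes of coenzyme Q synthesis, which make the lipid carrier between complexes I or II and complex III, were higher in 9 of 11 (median 0.05; 0.08 and 11 of 11 without WT_Mstn 1), none past the test. Coq4, a protein of the synthesis complex, read 7.75, 7.66, 7.25, 7.14 and 7.07 in WT_Mstn and 8.49, 8.08, 8.45, 7.68 and 8.13 in Floxed_Mstn. Only Floxed_Mstn 4 fell within the control range, and the difference of 0.79 (interval 0.37 to 1.21) had an adjusted p of 0.282. Coq3, a methyltransferase of the same route, differed by 0.17 (adjusted p = 0.701).

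Organisers of the cristae, the folds that carry the respiratory complexes, were higher in 11 of 13 genes (median 0.03), none past the test. Without WT_Mstn 3 the count was 8 of 13 and the median 0.0089. Chchd6, a subunit of the MICOS complex at the cristae necks, read 8.83, 8.72, 8.40, 8.80 and 8.98 in WT_Mstn and 9.18, 9.35, 9.05, 9.28 and 9.67 in Floxed_Mstn, with no overlap between the groups. The difference was 0.56 (interval 0.25 to 0.87, adjusted p = 0.295), and with the hybridisation controls as a covariate it was 0.61 and passed the test (adjusted p = 0.024). Apool, another MICOS subunit, differed by 0.13 (adjusted p = 0.840).

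Carriers and channels of the mitochondrial membranes had a median difference of 0.01 over 9 genes, which ran from -0.01 to 0.02 as single arrays were left out. Mpc1, a subunit of the pyruvate carrier, read 13.24, 13.17, 13.18, 13.16 and 13.21 in WT_Mstn and 13.29, 13.26, 13.26, 13.27 and 13.33 in Floxed_Mstn, which did not overlap (difference 0.09, adjusted p = 0.774), while the ATP/ADP exchanger gene Slc25a5 differed by -0.07. Among 12 genes of mitochondrial DNA upkeep and transcription the median was 0.03 and ran from -0.0004, without WT_Mstn 3, to 0.05, without WT_Mstn 1. They included Lrpprc, which stabilises mitochondrial transcripts, at 0.16 and Mterf1a, a mitochondrial transcription terminator, at -0.45 (adjusted p = 0.758 and 0.797).

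Fibre-type genes are given beside the subunits because oxidative fibres hold more of the complexes. The 10 slow fibre genes had a median difference of -0.27, with 9 lower and 1 higher, and the 12 fast fibre genes one of 0.03, with 10 higher and 2 lower, none past the test in either list. The slow fibre median rested largely on Floxed_Mstn 1: it was -0.07 without that array, with 8 lower and 2 higher, and it was -0.14 without WT_Mstn 5 and -0.43 without Floxed_Mstn 3. The fast fibre median was 0.0087 without WT_Mstn 1, 0.04 without WT_Mstn 3 or Floxed_Mstn 2, and 0.0019 with quantile normalization. Mb, myoglobin, the oxygen-binding protein of oxidative fibres, read 14.77, 14.72, 14.80, 14.70 and 14.82 in WT_Mstn and 14.67, 14.58, 14.69, 14.57 and 14.61 in Floxed_Mstn, which did not overlap (difference -0.14, adjusted p = 0.622). Myl2, the slow myosin regulatory light chain, differed by -0.22, and Actn3 and Mylpf, the fast fibre actinin and light chain, by 0.08 and 0.06. The slow genes varied between animals with a median SD of 0.449, against 0.056 for the subunits.

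**Figure D5:**
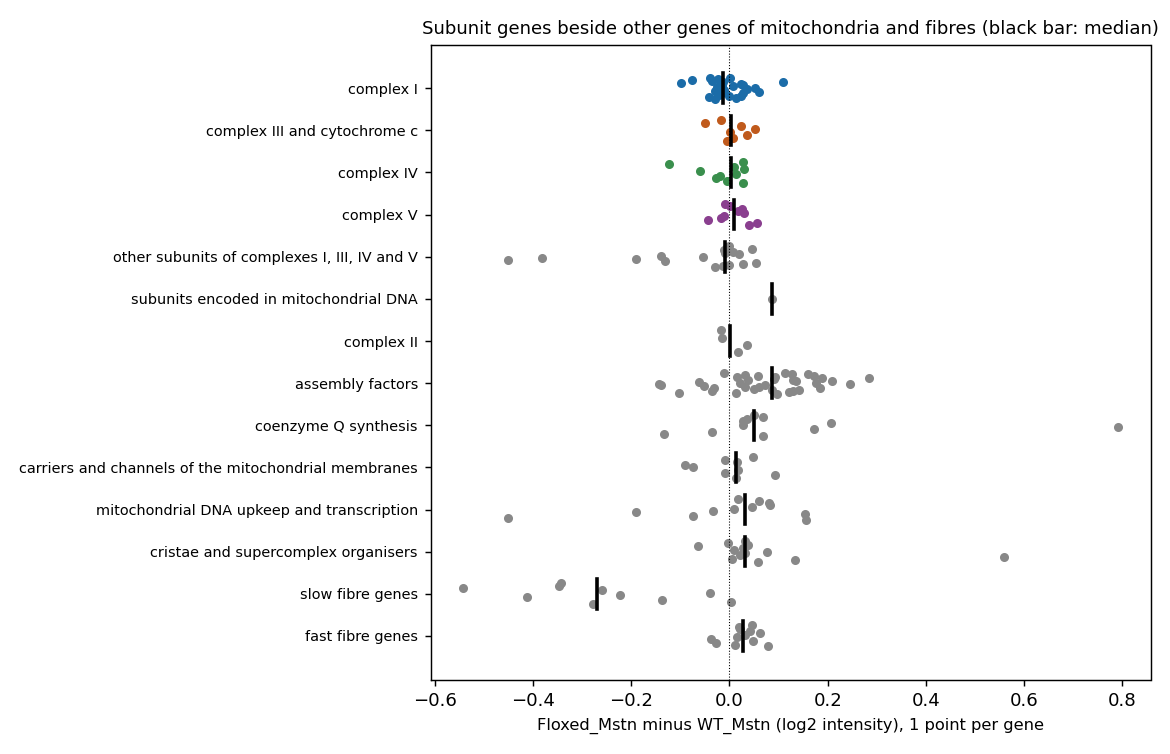
Difference of each gene (1 point, Floxed_Mstn minus WT_Mstn, log2 intensity on the horizontal axis) in the 4 groups of subunit genes and in the 10 other lists, with a black bar for the list's median. Subunit genes lie between -0.12 and 0.11, the assembly factors have a median of 0.09 and the slow fibre genes one of -0.27.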

How the data were processed

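Transcripts of gastrocnemius muscle were measured on 10 microarrays, 5 Floxed_Mstn and 5 WT_Mstn. The deposited values are linear intensities of 45101 probe sets, made by the authors with GCRMA per the submitters' processing notes (version not stated there). Values were taken to log2 here without further normalization. In the platform annotation 34945 non-control probe sets carry 1 gene symbol, 932 carry several and 9211 are not listed. Of the brightest probe sets of the 56 measured subunit genes, 14 are of the shared-probe types _s_at or _x_at. Their probes may match other transcripts too, although the annotation gives them 1 symbol. Atp5f1 was matched by gene identifier to its newer name, Atp5pb, and a gene entered in a list under 2 names was counted once. Control probe sets (64) and probe sets with a mean log2 level under 4 were left out. The remaining 21154 were fitted in R 4.3.3 by lmFit and eBayes of limma 3.58.1, with a two-sided test, Benjamini-Hochberg adjustment over all of them and a threshold of 0.05, a procedure tested on simulated data.

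The subunit genes and the other lists were chosen with earlier results of these data known. Named with values are, in each complex, the 4 genes of lowest p and the one of largest spread, the isoform pairs, and the 2 genes of lowest p in every other list; exceptions are marked. Nothing in the labels says more of the animals' independence than their sample names. The p-values set each group difference against the spread between these samples. Arrays have no read depth, and their number limits the precision. Alternatives covered the filter, normalization, variance model, array weights, replicate block, hybridisation controls, the choice of probe set and each array left out. No pair of arrays was identical. Figures used matplotlib 3.10.9 in Python 3.11.15.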

Additional observations from a re-analysis of the deposited data

Results flagged for a closer look

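Of 110 groups of 5 arrays examined (each named gene, each isoform pair, the mean levels of the complexes and of all subunit genes, and the hybridisation controls, in each genotype), 5 held an array whose gap to its nearest neighbour exceeded 0.71 of the group's range; chance alone flags about 5.5. In Uqcrfs1, Floxed_Mstn 2 read 13.72 while the other knockouts read 13.62 to 13.64. In Cox4i2, WT_Mstn 2 read 4.85 while the other controls read 4.44 to 4.53, close to the filter on dim probe sets. In Sdhaf1, WT_Mstn 3 read 8.73 while the other controls read 9.11 to 9.16. In Coq3, Floxed_Mstn 3 read 9.58 while the other knockouts read 9.64 to 9.66. In Mterf1a, Floxed_Mstn 5 read 5.16 while the other knockouts read 6.42 to 6.81.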

How the results depend on the processing

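No subunit gene passed the test in any of the settings run, and over the 456 recomputed values of the named subunit genes the lowest adjusted p was 0.565. The number of probe sets called in the whole table was 21; it became 11 without the filter on dim probe sets, 36 with quantile normalization, 58 with a variance trend and robust fit, 67 with array weights, 72 with the hybridisation controls as a covariate, 5 without the 3 arrays of highest controls, and 1 to 17 when arrays were left out in turn (14 without WT_Mstn 1, 17 without Floxed_Mstn 5, and 1 to 3 without any of the others). The median difference of complex III with cytochrome c moved from 0.0040 to 0.048 with array weights and to 0.044 without those 3 arrays. It was below 0 with quantile normalization (-0.0016), without WT_Mstn 5 (-0.017) and without Floxed_Mstn 5 (-0.0057). Leaving out single arrays, it ran from -0.017 to 0.020, that of complex I from -0.026 to -0.0003, of complex IV from -0.011 to 0.0091 and of complex V from -0.0055 to 0.020. Isoform pairs stayed on the same side of the threshold in each setting run, although the sizes of 4 of the 5 moved by over 1.5 times (given with each pair). With the replicate block this was fixed in advance, since sign changes of 5 differences cannot give a p under 0.05. Without the 3 arrays of highest controls, few assignments remained and there was little room to pass. Without Floxed_Mstn 5, the differences of Cox6a2 minus Cox6a1, Cox8b minus Cox8a and Cox4i1 minus Cox4i2 were larger, at 0.23, 0.21 and 0.60. Each then had an adjusted p of 0.0794 by exact permutation, its lowest as single arrays were left out. The lists of other genes were recomputed without each array and under other scalings, alternatives chosen after seeing the data. Replicate numbers did not pair the samples: the correlations of same-numbered arrays' deviations ran from -0.51 to 0.62, and an array matched its own number best in 2 of 10 cases; with the number as a replicate block, 1 probe set and 0 subunit genes were called. With a variance trend the median half-width of the subunit intervals was 0.084 and the lowest adjusted p 0.622. Cox7c and Cox4i2 are dim here, and their intervals are wide.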
